A study of Mus musculus with 12 samples.

Results

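Matricellular proteins are secreted into the extracellular matrix, where they act mainly as signals between matrix and cells and less as structural fibres. They bind integrins, other cell surface receptors, growth factors and proteases, and many of them are scarce in the resting adult tissue and made after injury. In the brain, astrocytes secrete several of them, among them thrombospondins and SPARC-like 1, which act on synapse formation, while vessel wall cells and invading blood cells are further sources. The 10 genes described here were taken by their symbols: Sparc and Sparcl1, the thrombospondins Thbs1, Thbs2, Thbs3 and Thbs4, Tnc (tenascin-C), Ccn1 and Ccn2 of the CCN family, and Fn1 (fibronectin), the matrix glycoprotein that several of the others bind. All 10 of 10 were found among the 21956 genes of the table, and all 10 passed the filter on low counts in every comparison.

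RNA of brain tissue next to the hematoma was sequenced in 12 libraries, 3 in each of 4 groups. Intracerebral hemorrhage (ICH) was made by injection of collagenase into the right striatum, and tissue was taken 48 h later, while sham mice had the procedure without induction of the injury. The Fabp4CKO mice carried floxed Fabp4 alleles and TMEM119creERT2, a tamoxifen-inducible Cre under control of the microglial gene Tmem119, and received tamoxifen before surgery, and the Fabp4flox/flox mice carried the floxed alleles. This gave the groups Sham-Fabp4flox/flox, Sham-Fabp4CKO, ICH-Fabp4flox/flox and ICH-Fabp4CKO. Whether the Fabp4flox/flox mice also received tamoxifen, and the age and sex of both lines, are not given in the sources used here. No source used here says that each library is a separate mouse, so the p-values measure the spread between libraries. Because the tissue was sequenced in bulk, more cells of a type and more RNA per cell cannot be told apart.

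Fabp4, the fatty acid-binding protein removed in the Fabp4CKO mice, had 46, 63 and 24 reads in the ICH-Fabp4flox/flox libraries and 5, 3 and 10 reads in the ICH-Fabp4CKO libraries. In the sham libraries it had 0 to 2 reads. Total counts ranged from 15650813 to 22406216 per library. ICH-Fabp4flox/flox library 1 stood apart by its mitochondrial share, 16.3% of counts against 7.90% to 11.9% elsewhere, and ICH-Fabp4CKO library 1 by having 1 read of 4 Y-linked genes against 1302 to 2251 in the others. Markers of choroid plexus and ependyma summed to 873, 1622 and 3171 CPM in the Sham-Fabp4flox/flox libraries and to 33.6 to 79.6 CPM in every other library, with 4 of 8 lower in Sham-Fabp4CKO than in Sham-Fabp4flox/flox. Markers of neurons, astrocytes and oligodendrocytes were present in all 12 libraries, with summed levels of 2352 to 9071, 3685 to 8541 and 7331 to 29246 CPM.

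After ICH, most of the matricellular genes were higher, and the size of the rise differed widely among them. Thbs1, Fn1, Ccn1 and Tnc rose between 8.53-fold and 116-fold in both genotypes, while Sparc, Thbs2, Thbs3, Thbs4 and Ccn2 rose by at most 5.84-fold where they were called. In Fabp4flox/flox mice, 9 of 10 genes passed an adjusted p of 0.05, 8 of them higher and 1, Sparcl1, lower in ICH. Over the 14719 genes tested in that comparison, 45.6% passed, 26.2% as higher and 19.3% as lower. In Fabp4CKO mice, 7 of 10 genes passed, all higher, against 35.6% of 14737 genes tested, 24.5% of them higher and 11.1% lower.

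Between the genotypes after ICH, 0 of 10 matricellular genes passed the edgeR quasi-likelihood test, which called 0% of the 14600 genes tested. At an unadjusted p under 0.05, 3 of 10 (Sparc, Thbs3 and Thbs4) passed against 12.2% of all genes. DESeq2 called 2 (Sparc and Thbs4), against 578 of the 14600 genes, and the edgeR exact test called 1 (Thbs4), against 265. In sham mice, 0 of 10 differed between the genotypes, against 0.111% of 14395 genes. There 2 (Thbs1 and Ccn1) were under an unadjusted p of 0.05 against 10.2% of all genes. DESeq2 and the exact test called 0 of 10 in sham, against 150 and 151 of the 14395 genes. In the interaction, which asks whether the response to ICH differed between the genotypes, 0 of 10 passed against 0.0199% of 15089 genes. Under an unadjusted p of 0.05 were 2 (Thbs3 and Thbs4) against 9.94%, and DESeq2 called 1 (Thbs4), against 266 of the 15089 genes.

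**Figure D1:**
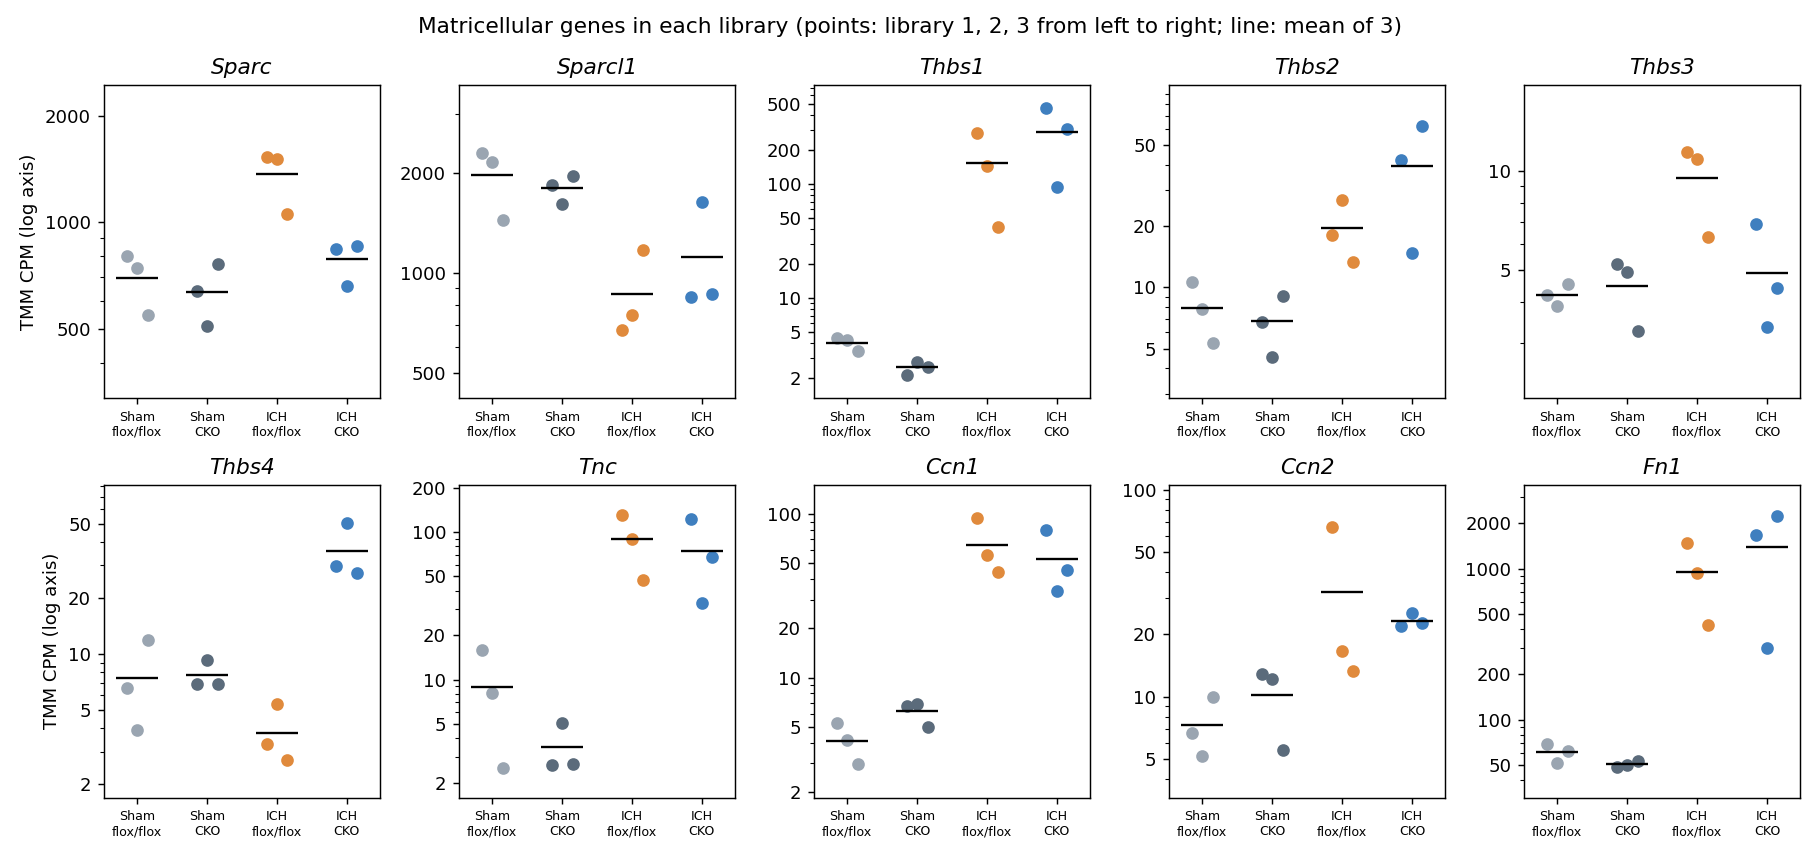
Level of each matricellular gene in each library, in CPM after TMM normalization on a log axis, by group, with points for libraries 1, 2 and 3 from left to right and a line at the mean of 3. Thbs1, Fn1, Ccn1 and Tnc sit above both sham groups in all 6 ICH libraries, and Thbs4 is above the other groups only in the 3 ICH-Fabp4CKO libraries, at 27.3 CPM or more.

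Sparc (ENSMUSG00000018593) encodes the collagen-binding glycoprotein SPARC, also called osteonectin, which regulates matrix assembly and the contact of cells with matrix. Levels are given here as CPM, read counts per 1000000 counts of a library after TMM scaling over the 12 libraries. In Sham-Fabp4flox/flox libraries 1, 2 and 3 Sparc was at 800.3, 741 and 545 CPM, and in Sham-Fabp4CKO at 638, 509 and 762 CPM. In ICH-Fabp4flox/flox it reached 1527, 1513 and 1053 CPM, and in ICH-Fabp4CKO 838, 659.7 and 857 CPM. All 3 ICH-Fabp4flox/flox libraries were above every other library, while ICH-Fabp4CKO overlapped its sham group. The log2 fold change after ICH was 0.93 ± 0.23 (SE, adjusted p = 0.0163) in Fabp4flox/flox and 0.31 ± 0.21 (adjusted p = 0.268) in Fabp4CKO. Between the genotypes after ICH it was -0.74 ± 0.24, with a 95% confidence interval of -1.32 to -0.16 and an adjusted p of 0.350, and DESeq2 gave an adjusted p of 0.0261. Endothelial markers were also highest in ICH-Fabp4flox/flox: 11 of 11 (100%) rose after ICH there and 5 of 11 (45.5%) in Fabp4CKO, against 26.2% and 24.5% of all genes. Their summed level was 311 to 372 CPM in sham, 1607, 1035 and 739.7 CPM in ICH-Fabp4flox/flox and 520, 407 and 454 CPM in ICH-Fabp4CKO. The sums of pericyte and smooth muscle, oligodendrocyte, and oligodendrocyte precursor markers were highest in ICH-Fabp4flox/flox too. They were at 607 to 1140, 18969 to 29246 and 746 to 901 CPM there, and at 324 to 564, 7331 to 11738 and 557 to 613 CPM in ICH-Fabp4CKO. The part of these markers in the Sparc difference was not tested.

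The promoter of Sparc is shown because it belongs to a gene raised in ICH-Fabp4flox/flox libraries over all others. Promoter sequences are from RefSeq on GRCm38.p6, from 250 bases before to 50 bases after an annotated start, and were given for 6 of the 10 genes, Tnc with 2 starts. No entry was given for Sparcl1, Thbs1, Ccn2 and Fn1. The sequence lies at chr11:55420031-55420330 on the minus strand and is written in the direction of transcription. Capitals mark the SMAD motif CAGACA on either strand, here at positions -36 and 14 relative to the start.
Sparc promoter: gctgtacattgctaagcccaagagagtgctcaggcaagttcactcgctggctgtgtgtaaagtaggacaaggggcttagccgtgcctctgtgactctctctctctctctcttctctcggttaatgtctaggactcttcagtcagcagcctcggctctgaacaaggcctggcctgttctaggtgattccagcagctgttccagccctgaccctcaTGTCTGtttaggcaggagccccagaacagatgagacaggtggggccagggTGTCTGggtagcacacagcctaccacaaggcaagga

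Sparcl1 (ENSMUSG00000029309), a SPARC relative also named hevin, is secreted by astrocytes and promotes excitatory synapse formation. It was at 2298, 2159.8 and 1439 CPM in Sham-Fabp4flox/flox and at 1842, 1613 and 1955 CPM in Sham-Fabp4CKO. After ICH it was at 674, 746 and 1176 CPM in Fabp4flox/flox and at 850.2, 1637 and 864 CPM in Fabp4CKO. The Fabp4flox/flox groups did not overlap, whereas ICH-Fabp4CKO library 2 lay within the range of its sham libraries. Sparcl1 fell by 1.21 ± 0.31 on the log2 scale in Fabp4flox/flox (adjusted p = 0.0172). In Fabp4CKO the log2 fold change was -0.69 ± 0.30 (adjusted p = 0.110), and without ICH-Fabp4CKO library 2 it was -1.07 (adjusted p = 0.000373). Summed neuron markers were lower in all 6 ICH libraries than in the sham libraries of the same genotype and highest among the ICH libraries in ICH-Fabp4CKO library 2, at 6640 CPM. Of these 14 markers 6 (42.9%) fell in Fabp4flox/flox and 1 (7.14%) in Fabp4CKO, against 19.3% and 11.1% of all genes. Their median log2 fold change was -0.60 in Fabp4flox/flox and -1.11 in Fabp4CKO, with 7 and 11 of them under an unadjusted p of 0.05. Summed astrocyte markers were at 6010 to 8541 CPM after ICH and at 3685 to 4251 CPM in sham, and highest in ICH-Fabp4CKO library 2. Of these 10 markers 3 (30%) rose in each genotype, against 26.2% and 24.5% of all genes. In Fabp4flox/flox 1 (10%) fell and in Fabp4CKO 0, against 19.3% and 11.1%. The medians of their log2 fold changes were -0.03 and 0.12. The part of the neuron and astrocyte markers in the Sparcl1 values was not tested.

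In Fabp4flox/flox mice Sparc rose and its relative fell after ICH, so their ratio differed more than either level. Compared per kilobase of exon, the level of Sparc was 0.266 to 0.294 times that of Sparcl1 in Sham-Fabp4flox/flox and 0.245 to 0.302 times in Sham-Fabp4CKO. After ICH the ratio was 1.76, 1.57 and 0.694 in Fabp4flox/flox and 0.764, 0.313 and 0.769 in Fabp4CKO. Every ICH library was above every sham library of either genotype, and the 2 ICH groups overlapped. The exact two-sided permutation test gave p = 0.1 for ICH against sham in each genotype, the smallest value that 3 against 3 libraries allow, and p = 0.3 between the genotypes after ICH.

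Thrombospondins are calcium-binding glycoproteins of 2 kinds: THBS1 and THBS2 form trimers, bind CD36 and CD47 and inhibit the growth of vessels, and THBS3 and THBS4 form pentamers. THBS1 is stored in platelets and activates latent TGF-beta. Thbs1 (ENSMUSG00000040152) was at 4.48, 4.27 and 3.46 CPM in Sham-Fabp4flox/flox and at 2.13, 2.78 and 2.48 CPM in Sham-Fabp4CKO. After ICH it reached 277, 143 and 41.8 CPM in Fabp4flox/flox and 461, 93.7 and 302 CPM in Fabp4CKO. The lowest ICH library was far above the highest sham library, but within each ICH group the libraries spanned a wide range. The log2 fold change was 5.18 ± 0.67 in Fabp4flox/flox (36.2-fold, adjusted p = 0.00124) and 6.86 ± 0.69 in Fabp4CKO (116-fold, adjusted p = 0.00478). For the genotypes after ICH it was 0.97 with a 95% confidence interval of -0.88 to 2.82 (adjusted p = 0.637), an interval that holds both lower and higher levels.

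The sham groups did not overlap for Thbs1, which was the 1 of 10 genes to be so separated, against 14.8% of all genes. The log2 difference of Sham-Fabp4CKO from Sham-Fabp4flox/flox was -0.71 ± 0.20, with an unadjusted p of 0.00915 and an adjusted p of 0.427. Without Sham-Fabp4flox/flox library 3, which held the most choroid plexus markers, Thbs1 and Tnc were called lower in Sham-Fabp4CKO (adjusted p = 0.0332 and 0.00857). These were 2 of 10, about the same share as over all genes, where 2862 of 14602 tested were called in that fit. Platelet and megakaryocyte markers, of which 1 of 10 was at 0 in each sham group, summed to 2.37 to 5.09 CPM in sham, 61.2, 26.0 and 18.9 CPM in ICH-Fabp4flox/flox and 36.5, 7.67 and 50.8 CPM in ICH-Fabp4CKO. Of the 4 tested in Fabp4flox/flox 1 (25%) rose and 1 (25%) fell, against 26.2% and 19.3% of all genes. Of the 5 tested in Fabp4CKO 3 (60%) rose, against 24.5%, and the part of these markers in the Thbs1 rise was not tested.

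Thbs2 (ENSMUSG00000023885), the other vessel-restraining thrombospondin, was at 10.7, 7.83 and 5.32 CPM in Sham-Fabp4flox/flox and at 6.75, 4.57 and 9.10 CPM in Sham-Fabp4CKO. In ICH it was at 18.2, 27.1 and 13.3 CPM in Fabp4flox/flox and at 42.5, 14.7 and 62.0 CPM in Fabp4CKO. Neither ICH group overlapped its sham group, and ICH-Fabp4CKO library 2 was within the ICH-Fabp4flox/flox range while libraries 1 and 3 were above it. The log2 fold change was 1.25 ± 0.33 (adjusted p = 0.0193) in Fabp4flox/flox and 2.55 ± 0.56 (adjusted p = 0.0201) in Fabp4CKO. After ICH the genotypes differed by 1.09 on the log2 scale (95% confidence interval -0.18 to 2.35, adjusted p = 0.456). Fibroblast markers summed to 1262, 194 and 2503 CPM in ICH-Fabp4CKO, the same order of libraries as Thbs2. In ICH-Fabp4flox/flox they summed to 547, 392 and 204 CPM, where the order was another than that of Thbs2, and in sham to 102.5 to 149 CPM. Of the 9 markers 5 (55.6%) rose in Fabp4flox/flox and 7 (77.8%) in Fabp4CKO, against 26.2% and 24.5% of all genes. Microglia, monocyte and macrophage, neutrophil, platelet and megakaryocyte, and pericyte and smooth muscle sums had the Thbs2 order in ICH-Fabp4CKO too. The part of any of these markers in the Thbs2 levels was not tested.

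Thbs3 (ENSMUSG00000028047) was at 4.19, 3.89 and 4.54 CPM in Sham-Fabp4flox/flox and at 5.22, 4.93 and 3.26 CPM in Sham-Fabp4CKO. After ICH it was at 11.5, 10.9 and 6.32 CPM in Fabp4flox/flox and at 6.92, 3.36 and 4.43 CPM in Fabp4CKO. Only the Fabp4flox/flox groups were separate. It rose there (log2 fold change 1.13 ± 0.26, adjusted p = 0.0119), and in Fabp4CKO the log2 value was 0.13 ± 0.34 (adjusted p = 0.761). The log2 difference between genotypes after ICH was -0.90 (95% confidence interval -1.76 to -0.05, adjusted p = 0.392) and the interaction was -1.05 ± 0.44 (unadjusted p = 0.0373, adjusted p = 0.456).

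Thbs4 (ENSMUSG00000021702), known from tendon, muscle and reactive astrocytes, had a pattern unlike Thbs1, Thbs2 and Thbs3. It was at 6.55, 3.89 and 11.9 CPM in Sham-Fabp4flox/flox and at 6.89, 9.27 and 6.90 CPM in Sham-Fabp4CKO. After ICH it was at 3.31, 5.36 and 2.71 CPM in Fabp4flox/flox and at 29.6, 50.6 and 27.3 CPM in Fabp4CKO. Every ICH-Fabp4CKO library was above every library of the other groups, and ICH-Fabp4flox/flox overlapped its sham group at the low end. In Fabp4CKO it rose 4.67-fold after ICH (log2 2.22 ± 0.29, adjusted p = 0.00634), and in Fabp4flox/flox the log2 value was -1.02 ± 0.45 (adjusted p = 0.0996). Thbs4 and Sparc were the 2 of 10 genes whose genotypes did not overlap after ICH, against 19.8% of all genes.

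The log2 difference of ICH-Fabp4CKO from ICH-Fabp4flox/flox in Thbs4 was 3.30 ± 0.38, with a 95% confidence interval of 2.39 to 4.20, and ranked 7 by p among 14600 genes. Its adjusted p was 0.158 by the quasi-likelihood test on the 6 libraries, so it was not called, while it passed by DESeq2 (3.37e-12), by the edgeR exact test (9.15e-11) and in the fit on all 12 libraries (0.0115). With 1 library left out at a time the value stayed between 2.96 and 3.62, with adjusted p-values from 0.0564 to 0.670. In sham the genotypes were at a log2 difference of 0.05 ± 0.37 (95% confidence interval -0.81 to 0.91). The interaction was 3.20 ± 0.58 (95% confidence interval 1.92 to 4.47, unadjusted p = 0.000184, adjusted p = 0.120), and it passed by DESeq2 (adjusted p = 3.71e-05) and without ICH-Fabp4CKO library 2 (adjusted p = 0.0341). That library had the highest Thbs4 level, the lowest Thbs1, Thbs2 and Fn1 levels of its group and summed monocyte and macrophage markers of 1106 CPM, against 5304 and 8893 CPM in libraries 1 and 3.

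The promoter of Thbs4 is shown for this pattern and that of Ccn1 for its rise after ICH, which had the smallest adjusted p of the 10 genes. The first lies at chr13:92794769-92795068 and the second at chr3:145649936-145650235, both on the minus strand and written in the direction of transcription. Capitals mark the TEAD motif GGAATG and the SMAD motif CAGACA on either strand. In Thbs4 the TEAD matches lie at -197 and -192, overlapping by 1 base, and the SMAD match at -227, and in Ccn1 the TEAD match lies at -103.
Thbs4 promoter: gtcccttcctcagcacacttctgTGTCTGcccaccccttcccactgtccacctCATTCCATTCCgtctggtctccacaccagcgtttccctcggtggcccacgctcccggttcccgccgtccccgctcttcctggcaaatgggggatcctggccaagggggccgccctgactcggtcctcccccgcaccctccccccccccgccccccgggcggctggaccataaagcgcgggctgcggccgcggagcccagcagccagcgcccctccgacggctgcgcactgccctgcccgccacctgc
Ccn1 promoter: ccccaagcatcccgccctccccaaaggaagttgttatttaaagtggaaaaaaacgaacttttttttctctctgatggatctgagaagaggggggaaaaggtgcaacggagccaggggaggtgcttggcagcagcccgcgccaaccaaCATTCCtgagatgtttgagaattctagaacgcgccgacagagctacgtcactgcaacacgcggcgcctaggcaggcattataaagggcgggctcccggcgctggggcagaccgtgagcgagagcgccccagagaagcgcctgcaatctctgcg

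Among the 7 member promoters, GGAATG was in 2 and CAGACA in 5, those of Sparc, Thbs2, Thbs4 and both starts of Tnc, which overlap each other. Over 32851 promoters of the same length, 14.7% held the first and 21.0% the second. The AP-1 motif TGACTCA and the CArG box (the serum response element) were in 0 of 7, against 5.20% and 1.63% of all promoters. These matches describe the letters of a 300-base window and nothing further.

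**Figure D2:**
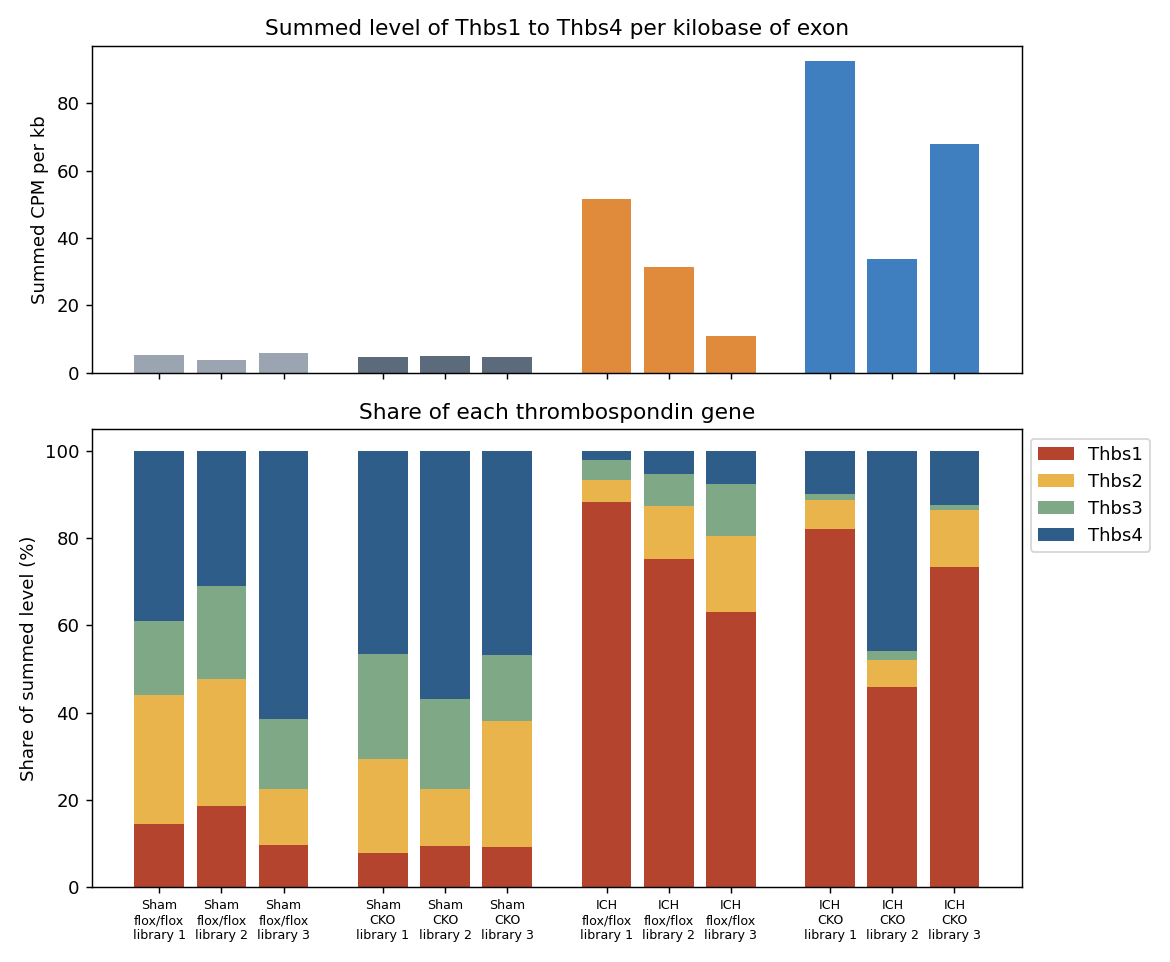
Summed level of Thbs1, Thbs2, Thbs3 and Thbs4 in CPM per kilobase of exon (top) and the share of each gene in that sum in percent (bottom), one bar per library. The sum is between 3.81 and 5.90 in sham and between 10.9 and 92.4 after ICH, and the Thbs1 share goes from at most 18.5% to at least 45.9%.

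Compared per kilobase of exon, the sum of Thbs1, Thbs2, Thbs3 and Thbs4 had another make-up after ICH than in sham. The summed level of these 4 genes was 3.81 to 5.90 CPM per kilobase in the 6 sham libraries. It was 51.7, 31.3 and 10.9 in ICH-Fabp4flox/flox and 92.4, 33.6 and 67.8 in ICH-Fabp4CKO. Thbs4 held the largest mean share in sham, 43.8% ± 15.8 (SD, n = 3) in Fabp4flox/flox and 50.1% ± 5.91 in Fabp4CKO, and Thbs1 the smallest, 14.2% ± 4.41 and 8.72% ± 0.800. After ICH Thbs1 held 75.6% ± 12.7 in Fabp4flox/flox and 67.1% ± 18.9 in Fabp4CKO, and Thbs4 4.90% ± 2.81 and 22.6% ± 20.1. The Thbs4 share was 9.74%, 45.8% and 12.2% in the ICH-Fabp4CKO libraries, all above the highest ICH-Fabp4flox/flox value of 7.55%. The sham and ICH shares of Thbs1 and of Thbs4 did not overlap in either genotype (exact two-sided permutation p = 0.1 each, the smallest possible), and neither did the Thbs4 shares of the genotypes after ICH (p = 0.1).

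Tnc (ENSMUSG00000028364) encodes tenascin-C, a large matrix glycoprotein that is scarce in most adult tissue, is made in wounds and activates Toll-like receptor 4. It was at 15.9, 8.16 and 2.53 CPM in Sham-Fabp4flox/flox and at 2.64, 5.10 and 2.67 CPM in Sham-Fabp4CKO. In ICH it was at 131, 89.1 and 47.5 CPM in Fabp4flox/flox and at 122, 32.8 and 67.2 CPM in Fabp4CKO. The Sham-Fabp4flox/flox libraries differed 6.29-fold from lowest to highest, the widest spread among the genes in that group, and still lay below every ICH library. The log2 fold change was 3.28 ± 0.64 (adjusted p = 0.00651) in Fabp4flox/flox and 4.42 ± 0.58 (adjusted p = 0.00654) in Fabp4CKO. After ICH the genotypes were at a log2 difference of -0.20, with a 95% confidence interval of -1.48 to 1.08.

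CCN1 and CCN2 bind integrins and heparan sulfate and their genes are known targets of YAP and TAZ with TEAD factors, and Ccn2 of TGF-beta as well. Ccn1 (ENSMUSG00000028195) was at 5.25, 4.16 and 2.94 CPM in Sham-Fabp4flox/flox and at 6.70, 6.90 and 5.01 CPM in Sham-Fabp4CKO. In ICH it was at 94.5, 56.5 and 44.2 CPM in Fabp4flox/flox and at 79.3, 33.8 and 45.6 CPM in Fabp4CKO. All ICH libraries were well above all sham libraries and the 2 ICH groups overlapped widely. Its log2 fold change was 3.93 ± 0.34 in Fabp4flox/flox (15.2-fold, adjusted p = 0.000385), the smallest adjusted p among the 10 genes, and 3.09 ± 0.36 in Fabp4CKO (8.53-fold, adjusted p = 0.00577). The log2 difference between the genotypes was 0.60 ± 0.24 in sham (unadjusted p = 0.0399, adjusted p = 0.484) and -0.23 ± 0.39 after ICH (adjusted p = 0.836).

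Ccn2 (ENSMUSG00000019997), connective tissue growth factor, responded less and less evenly. It was at 6.70, 5.20 and 10.02 CPM in Sham-Fabp4flox/flox and at 12.9, 12.2 and 5.56 CPM in Sham-Fabp4CKO. In ICH it was at 66.1, 16.7 and 13.3 CPM in Fabp4flox/flox and at 21.9, 25.5 and 22.6 CPM in Fabp4CKO. One library, ICH-Fabp4flox/flox library 1, held the high value, while the ICH-Fabp4CKO libraries were close together. The log2 fold change was 2.07 ± 0.62 (adjusted p = 0.0295) in Fabp4flox/flox and 1.19 ± 0.32 (adjusted p = 0.0346) in Fabp4CKO. Without ICH-Fabp4flox/flox library 1, which also had the high mitochondrial share, the first was 1.00 and the log2 difference of the genotypes after ICH turned from -0.38 to 0.67 (adjusted p = 0.641).

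Fn1 (ENSMUSG00000026193) encodes fibronectin, the plasma and tissue glycoprotein that binds integrin alpha 5 beta 1, fibrin and collagen and forms the early matrix of wounds. It was at 69.4, 52.1 and 62.3 CPM in Sham-Fabp4flox/flox and at 48.8, 50.4 and 53.4 CPM in Sham-Fabp4CKO. In ICH it was at 1481, 935 and 425 CPM in Fabp4flox/flox and at 1663, 299.9 and 2255 CPM in Fabp4CKO. The sham libraries were close together and the ICH libraries were spread out, most of all in Fabp4CKO, where they differed 7.52-fold. The log2 fold change was 3.90 ± 0.44 (14.9-fold, adjusted p = 0.000798) in Fabp4flox/flox and 4.79 ± 0.76 (27.7-fold, adjusted p = 0.00922) in Fabp4CKO. Comparing the genotypes after ICH, the log2 difference was 0.64 with a 95% confidence interval of -1.17 to 2.45 (adjusted p = 0.758), which holds both lower and higher levels. Monocyte and macrophage markers summed to 2209, 1737 and 846 CPM in ICH-Fabp4flox/flox, 5304, 1106 and 8893 CPM in ICH-Fabp4CKO and 35.6 to 82.6 CPM in sham, the same order of libraries as Fn1 within each ICH group. All 10 of these markers rose in both genotypes, against 26.2% of all genes in Fabp4flox/flox and 24.5% in Fabp4CKO. Summed fibroblast, neutrophil, platelet and megakaryocyte, and pericyte and smooth muscle markers had the same order of libraries as Fn1 in both ICH groups too. The part of any of these markers in the Fn1 levels was not tested.

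**Figure D3:**
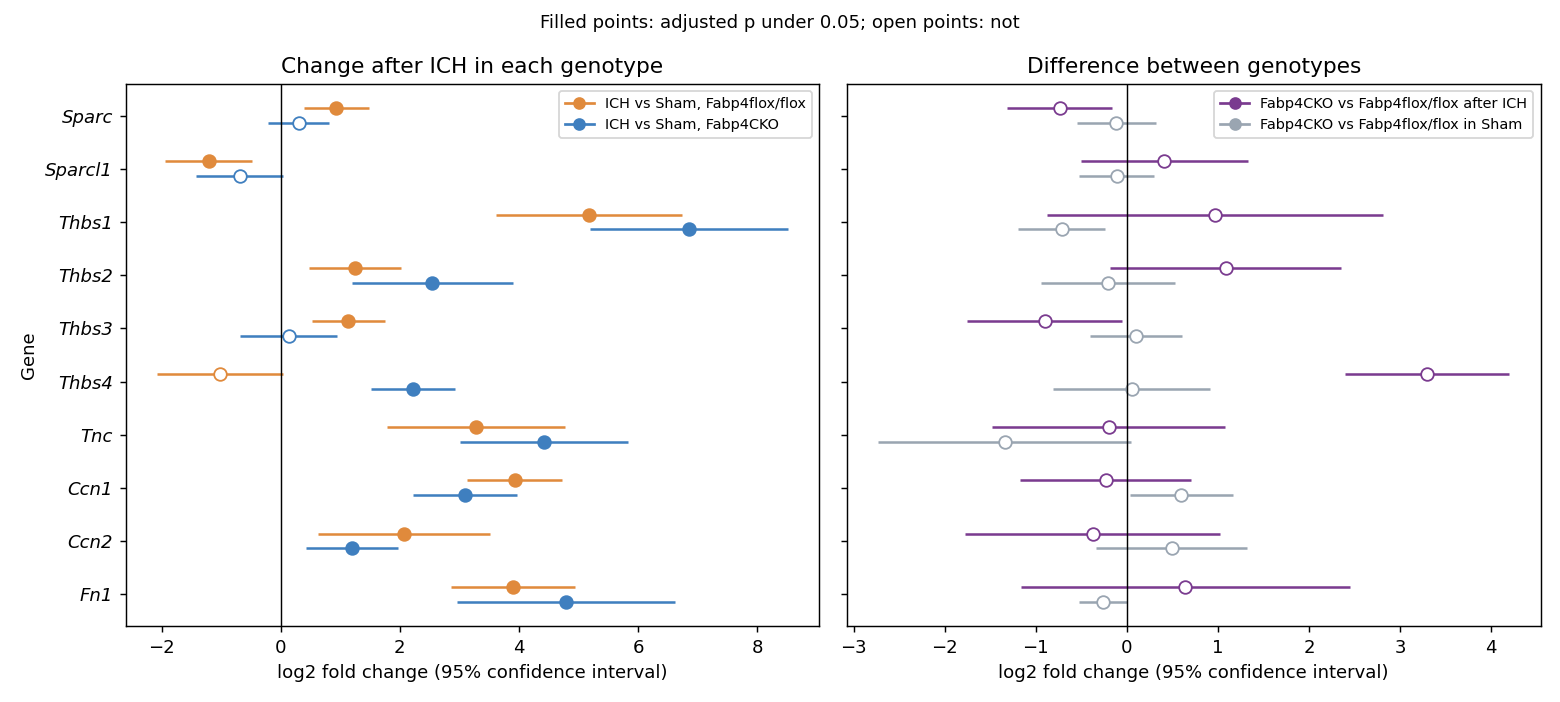
Log2 fold change of each gene with its 95% confidence interval, for ICH against Sham in each genotype (left) and for Fabp4CKO against Fabp4flox/flox after ICH and in Sham (right), filled where the adjusted p is under 0.05. On the left, 9 genes are filled in Fabp4flox/flox and 7 in Fabp4CKO, and on the right no point is filled and Thbs4 after ICH lies farthest from 0, at 3.30.

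The groups of ICH and sham libraries did not overlap for 9 of 10 genes in Fabp4flox/flox and for 7 of 10 in Fabp4CKO, against 61.8% and 62.1% of all genes. Thbs1, Tnc and Ccn1 were called in both genotypes whichever library was left out, as was Fn1 in Fabp4flox/flox and Thbs4 in Fabp4CKO. The other calls were lost in at least 1 fit with 1 library fewer, in part with log2 fold changes close to those over all libraries. Fn1 in Fabp4CKO was at 4.76, 4.78 and 4.82 without Sham-Fabp4CKO libraries 1, 2 and 3 against 4.79 with all, and Sparc in Fabp4flox/flox at 0.93 without Sham-Fabp4flox/flox library 2 against 0.93. In Fabp4flox/flox, 5 genes were called without Sham-Fabp4flox/flox library 2, where Sparc, Sparcl1, Thbs2, Thbs3 and Ccn2 were lost (adjusted p = 0.0545 to 0.10) and Thbs4 was called as lower (0.0477). Likewise 5 were called without ICH-Fabp4flox/flox library 2, where Sparc, Sparcl1, Thbs2 and Thbs3 were lost (0.0561 to 0.0809). Sparcl1 and Ccn2 were lost without Sham-Fabp4flox/flox library 1 (0.0515 to 0.0822) and Sparc, Thbs2 and Ccn2 without library 3 of that group (0.0542 to 0.0602). Over all genes the calls went from 6707 to 5077, 4340 and 5288 without Sham-Fabp4flox/flox libraries 1, 2 and 3. They went to 5394, 4181 and 8165 without ICH-Fabp4flox/flox libraries 1, 2 and 3.

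In Fabp4CKO, 4 genes were called without any single one of Sham-Fabp4CKO libraries 1, 2 and 3, since Thbs2, Ccn2 and Fn1 were lost each time (adjusted p between 0.0501 and 0.0866). Without ICH-Fabp4CKO library 1, which lacked Y-linked reads, 5 were called, as Thbs2 and Ccn2 were lost (0.0701 to 0.0951), and without library 3 only Ccn2 was lost (0.0700). Leaving out ICH-Fabp4CKO library 2 brought Sparcl1 past the threshold, so that 8 were called. The count over all genes moved with these fits, from 5247 to between 751 and 847 without a sham library and to 10099 without ICH-Fabp4CKO library 2. It was 1583 and 3047 without ICH-Fabp4CKO libraries 1 and 3.

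**Figure D4:**
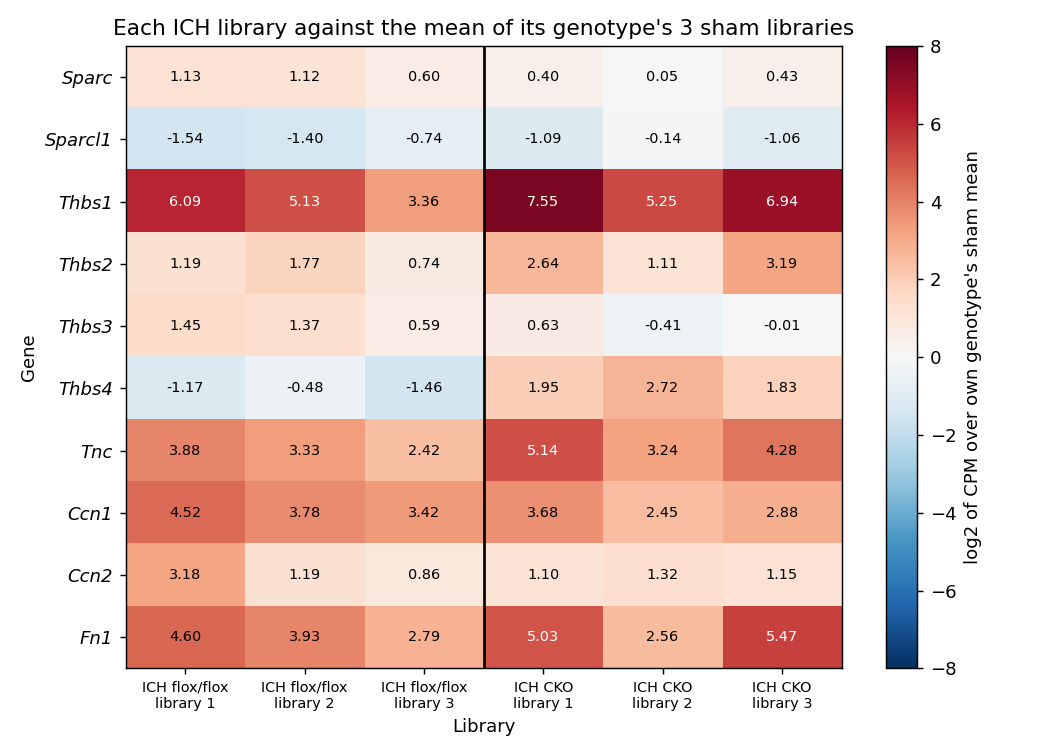
Log2 ratio of each gene's CPM in each of the 6 ICH libraries to the mean CPM of the 3 sham libraries of the same genotype, by gene and library, in red where higher and blue where lower. Within ICH-Fabp4flox/flox the smallest rises of Thbs1 (3.36), Fn1 (2.79) and Ccn1 (3.42) are in library 3, within ICH-Fabp4CKO those of Thbs1 (5.25), Tnc (3.24) and Fn1 (2.56) are in library 2, and Thbs4 is negative in all 3 libraries of the first group and positive in all 3 of the second.

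The matricellular genes tended to be low in the same ICH library. ICH-Fabp4flox/flox library 3 held the lowest level of 9 of 10 genes and the highest of 1, Sparcl1, and library 1 the highest of 7. ICH-Fabp4CKO library 2 held the lowest level of 7 genes and the highest of the 3 others, Sparcl1, Thbs4 and Ccn2. These were also the 2 libraries with the highest summed neuron markers of their groups, 6316 CPM against 2587 and 4205, and 6640 CPM against 3344 and 2352, and with the lowest summed monocyte and macrophage markers. The summed markers of fibroblasts, endothelium, pericytes and smooth muscle, and platelets were lowest in them too. The part of these differences in the levels of the 10 genes was not tested, and the order of libraries was not counted over all genes. In all, the 10 genes took 0.216% to 0.409% of the counts of a library, and their shares in sham and ICH overlapped in both genotypes.

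Ordered per kilobase of exon, Sparcl1 (669 ± 157 CPM per kilobase, SD, n = 3) and Sparc (184 ± 35.3) led in Sham-Fabp4flox/flox, followed by Fn1 at 5.24 ± 0.745, and none of these neighbours overlapped. The other 7 genes were between 0.670 and 2.55 CPM per kilobase. Of these Ccn2, Thbs4, Ccn1, Tnc and Thbs2 each overlapped the next, Thbs3 followed, and Thbs1 was last and did not overlap Thbs3. The sham order in Fabp4CKO had the same first 4 and last genes, with overlap between neighbours from Fn1 to Thbs4. After ICH in Fabp4flox/flox Sparc (360.2 ± 71.2) and Sparcl1 (295 ± 92.4) overlapped, Fn1 was at 81.0 ± 45.2, Ccn1 at 32.2 ± 12.99 and Thbs1 at 25.4 ± 19.5, each overlapping the next, and Thbs4 was last at 1.15 ± 0.423. In ICH-Fabp4CKO Sparcl1 (380.4 ± 153) and Sparc (207 ± 28.8) did not overlap, Fn1 (120.3 ± 85.8) overlapped Sparc, Thbs1 was the fourth at 47.0 ± 30.3, Thbs4 the sixth at 10.9 ± 3.91 and Thbs3 last at 1.02 ± 0.379.

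Likeness of profiles was measured over the 12 libraries as the root mean square difference of log2 CPM after each gene was centred on its own mean, among 15089 genes. No matricellular gene of the 10 was the nearest gene of another. The closest pair of members was Sparc and Thbs3 at 0.35, Fn1 and Ccn1 were at 0.75, Tnc and Ccn1 at 0.77, and Thbs1 had Fn1 as its nearest member at 0.93. Among all genes Thbs3 ranked 1370 in likeness to Sparc, Ccn1 524 to Fn1 and 234 to Tnc, and Fn1 184 to Thbs1. Fn1 was most like Fxyd5 (0.13), Sparcl1 most like Abhd3 (0.14), Sparc most like Zfp386 (0.17), Thbs3 most like Hspa12b (0.18) and Thbs2 most like Pygl (0.26). Ccn1 had Nes (0.35), the gene of the intermediate filament nestin, as its nearest gene, Thbs1 had Runx3 (0.37), Ccn2 had Tmem40 (0.38) and Tnc had Cebpd (0.39). Thbs4 was farthest from any other gene, with Gp2 at 0.49, a gene at 0.703 CPM or less in the mean of every group.

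Of the receptors that the matricellular proteins use, listed as 27 genes, 26 were tested. In Fabp4flox/flox 13 (50%) rose and 3 (11.5%) fell after ICH against 26.2% and 19.3% of all genes, with a median log2 fold change of 0.78 against 0.02 over all genes, and in Fabp4CKO 17 (65.4%) rose and 1 (3.85%) fell against 24.5% and 11.1%, with a median of 1.45 against 0.01. The largest changes past the test in Fabp4flox/flox were those of Stab1, a scavenger receptor that takes up SPARC (log2 4.35 ± 0.37, adjusted p = 0.000362), Cd36, a thrombospondin receptor (4.27 ± 0.41, adjusted p = 0.000479), the leukocyte integrin Itgb2 (4.13 ± 0.38, adjusted p = 0.000421) and Tlr4 (3.36 ± 0.38, adjusted p = 0.000791). In mean level Cd36 was at 2.74 CPM in Sham-Fabp4flox/flox, 55.0 in ICH-Fabp4flox/flox and 388 ± 441 (SD, n = 3) in ICH-Fabp4CKO. Among those that fell in Fabp4flox/flox were Cacna2d1, a calcium channel subunit that binds thrombospondins, and Cntn1, a neuronal surface protein, which fell by 1.17 and 1.02 on the log2 scale. By edgeR 0 of 26 differed between the genotypes after ICH, in sham and in the interaction. DESeq2 also called 0 in each, against 578 of 14600, 150 of 14395 and 266 of 15089 genes. Under an unadjusted p of 0.05 were 4 (15.4%), 3 (11.5%) and 3 (11.5%) of them, against 12.2%, 10.2% and 9.94% of all genes.

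A list of 26 other matricellular genes was counted in the same way. Of 23 tested in Fabp4flox/flox 11 (47.8%) rose and 3 (13%) fell, against 26.2% and 19.3% of all genes (median log2 0.93). Of 24 in Fabp4CKO 12 (50%) rose and 0 fell by edgeR, against 24.5% and 11.1% (median 1.29, with 16 under an unadjusted p of 0.05). The largest changes in Fabp4flox/flox were those of Lgals3, galectin-3 (log2 6.56 ± 0.51, adjusted p = 0.000350), Ccn5 (6.22 ± 0.95, adjusted p = 0.00243), Spp1, osteopontin (5.92 ± 1.12, adjusted p = 0.00567) and Tgfbi (5.21 ± 0.38, adjusted p = 0.000341). Spp1 averaged 35.4 CPM in Sham-Fabp4flox/flox, 2238 ± 2366 in ICH-Fabp4flox/flox and 7908 ± 7603 in ICH-Fabp4CKO, a spread between libraries as large as the mean. Smoc2, Spock1 and Spock2, members of the SPARC family in its wide sense, fell by 2.82, 1.38 and 1.12 on the log2 scale in Fabp4flox/flox. Smoc2 averaged 6.90 ± 4.58 CPM in Sham-Fabp4flox/flox, the group with the choroid plexus markers, against 1.08 ± 0.179 in Sham-Fabp4CKO, 1.03 ± 0.941 in ICH-Fabp4flox/flox and 1.58 ± 0.665 in ICH-Fabp4CKO. In Fabp4CKO its log2 fold change was 0.55 ± 0.37 (adjusted p = 0.257), and the part of the choroid plexus markers was not tested. By edgeR 0 of 24 differed between the genotypes after ICH, with 6 (25%) under an unadjusted p of 0.05 against 12.2% of all genes. DESeq2 called 3 (Vtn, Fbln5 and Ccn5) and the exact test 1 (Vtn), against 578 and 265 of 14600 genes. In sham 0 of 21 differed, with 4 (19%) under that p against 10.2%. There DESeq2 and the exact test each called 3 (Smoc2, Lgals3 and Lgals1), against 150 and 151 of 14395 genes. In the interaction 0 of 24 differed, with 4 (16.7%) under that p against 9.94%. DESeq2 called 2 (Vtn and Smoc2) in it, against 266 of 15089 genes.

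Targets and components of the pathways that control or follow these genes were counted from 2 further lists. Beside target genes, the TGF-beta list holds the ligands Tgfb1, Tgfb2 and Tgfb3 and the receptors Tgfbr1, Tgfbr2 and Eng. It also holds Ltbp1, Ltbp2 and Ltbp3, whose proteins bind latent TGF-beta. Of this mixed list, 20 of 27 (74.1%) rose and 1 (3.70%), Tgfb2, fell in Fabp4flox/flox against 26.2% and 19.3% of all genes (median log2 1.53). Not called there were Smad7, Skil, Ski, Bhlhe40, Eln and Fbn1. In Fabp4CKO 20 (74.1%) rose and 0 fell, against 24.5% and 11.1% (median 2.80). Timp1, an inhibitor of matrix metalloproteinases, averaged 0.572 CPM in Sham-Fabp4flox/flox and 161 ± 72.4 in ICH-Fabp4flox/flox, and the collagen genes Col3a1 and Col4a1 4.83 and 65.7 ± 48.9, and 38.5 and 513 ± 225 (adjusted p = 0.000305, 0.00334 and 0.000408). Of YAP/TAZ and SRF target genes, 9 of 24 (37.5%) rose and 4 (16.7%) fell in each genotype, with medians of 0.53 and 0.57. The shares over all genes were 26.2% and 19.3% in Fabp4flox/flox and 24.5% and 11.1% in Fabp4CKO. Tagln (log2 4.68 ± 0.49, adjusted p = 0.000615), Nuak2 (2.59 ± 0.34, 0.00126), Myl9 (1.91 ± 0.24, 0.00111) and Ajuba (1.83 ± 0.36, 0.00686) changed most in Fabp4flox/flox. By edgeR 0 of 27 genes of the TGF-beta list differed between the genotypes after ICH, with 5 (18.5%) under an unadjusted p of 0.05 against 12.2% of all genes, 2 (Timp1 and Tgfbr1) called by DESeq2 and 0 by the exact test. In sham it was 0 of 25 with 6 (24%) against 10.2% and, by both of these tools, 4 (Col1a1, Col3a1, Col1a2 and Tgfb2), and in the interaction 0 of 27 with 7 (25.9%) against 9.94% and, by DESeq2, 2 (Col1a1 and Tgfbr1). Of the YAP/TAZ and SRF targets 0 of 25 differed after ICH, with 4 (16%) under an unadjusted p of 0.05 against 12.2%, and 1 (Myl9) by DESeq2 and the exact test. In sham it was 0 of 22, with 3 (13.6%) against 10.2% and 0 by both tools, and in the interaction 0 of 25, with 4 (16%) against 9.94% and 1 (Myl9) by DESeq2. Over all genes, DESeq2 called 578 of 14600 after ICH, 150 of 14395 in sham and 266 of 15089 in the interaction. The exact test called 265 between the genotypes after ICH and 151 in sham. Of the first list, Col1a1, Col1a2 and Col3a1 are also fibroblast markers, while Col4a1 and Col4a2 are not among those markers. Tagln, Acta2 and Cnn1 of the second list are also markers of pericytes and smooth muscle. The sum of the pericyte and smooth muscle markers was 205 to 287 CPM in sham, 607 to 1140.0 in ICH-Fabp4flox/flox and 324 to 564 in ICH-Fabp4CKO.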

How the data were processed

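Poly(A) RNA of hematoma-adjacent mouse brain was sequenced on a NovaSeq instrument. The authors deposited estimated counts (expected counts) per gene: between 7.36% and 8.69% of the values of a library were not whole. The submitters' processing notes name Bowtie2 2.2.8, HISAT2, StringTie 1.3.1 and DESeq2 without their roles, and the genome build is not given in the sources used here. Counts were rounded. For each pair of groups, edgeR 4.0.16 (R 4.3.3) was run with TMM normalization, filterByExpr (minimum count 10, minimum total 15), the quasi-likelihood F-test and Benjamini-Hochberg adjustment over all genes tested, with a threshold of 0.05. The interaction was fitted on all 12 libraries. Standard errors were computed as the log2 fold change over the square root of F. Scripts were tested on simulated data. CPM used TMM factors over 12 libraries. Levels per kilobase used the union of exons of each gene in GENCODE M21 (GRCm38). Motifs were searched on both strands of RefSeq promoters.

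The 10 genes, the gene and marker lists, and the tests were chosen with earlier results of these data known. All 10 members were named whatever their result, with up to 4 genes per list, those of largest absolute log2 fold change past the threshold in Fabp4flox/flox, and the most alike gene and member. The genes that fell in a list, and those called by other tools only, were named after their values were seen. Values of 2 list genes that the rule or the counts would name are not reported here. Alternatives were DESeq2 1.42.0, the edgeR exact test, RLE and total-count scaling, 2 other filters, all libraries in one fit, a replicate block and leaving out each library. The totals of 15650813 to 22406216 counts limit the precision of genes with few reads, and the lowest count of a member was 46.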

Additional observations from a re-analysis of the deposited data

Results flagged for a closer look

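Thbs4 stood out because each ICH-Fabp4flox/flox library was below, and each ICH-Fabp4CKO library above, the mean of the sham libraries of its genotype. The difference of the changes was 3.20 on the log2 scale; its test in the interaction gave an adjusted p of 0.120, and 0.0341 to 0.391 with 1 library left out at a time. No other of the 10 genes had this pattern.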

How the results depend on the processing

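In ICH against Sham the direction of all 10 genes was kept under every alternative scaling, filter and test, and the calls changed only by Sparcl1 in Fabp4CKO under DESeq2 and Ccn2 in Fabp4CKO where the 12 libraries shared a fit. With 1 library left out, the genes called ranged from 5 to 9 in Fabp4flox/flox (4181 to 8165 genes in all) and from 4 to 8 in Fabp4CKO (751 to 10099). Between the genotypes after ICH the number called was 2 by DESeq2, 1 by the edgeR exact test and 1 where the 12 libraries shared one fit, and the counts over all genes were 578, 265 and 362 against 0, and 0 to 2 with 1 library left out. In sham it ranged from 0 to 2 with 1 library left out, and over all genes from 0 to 2862 against 16, with 150 by DESeq2, 151 by the exact test and 2 with at least 10 counts in every library. In the interaction it was 1 by DESeq2 (266 genes in all against 3) and 0 to 1 with 1 library left out (0 to 371 genes); the cause was not tested.

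Whether replicate numbers pair the libraries could not be settled, because the correlations rest on deviations from means of 3 libraries. No comparison had all same-numbered correlations above 0.1, and they ran from -0.58 to 0.31. In ICH against Sham in Fabp4flox/flox they were 0.196, 0.023 and 0.127, and each ICH library correlated best with the sham library of its own number. In the other comparisons not every library did so. With the replicate block the calls of the 10 genes stayed at 9, 7, 0, 0 and 0, and Ccn2 between the genotypes after ICH turned to 0.00749. Over all genes, ICH against Sham called 7262 against 6707 in Fabp4flox/flox and 3684 against 5247 in Fabp4CKO, and the interaction called 1 gene against 3.

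Signs turned with 1 library left out only for values that had not been called. Between the genotypes after ICH, Tnc ranged from -0.76 to 0.16, Ccn1 from -0.65 to 0.10 and Ccn2 from -0.78 to 0.67. In sham Sparc ranged from -0.28 to 0.0239, Sparcl1 from -0.29 to 0.00147, Thbs2 from -0.49 to 0.0495, Thbs3 from -0.0395 to 0.27 and Thbs4 from -0.25 to 0.57. In Fabp4CKO after ICH Thbs3 ranged from -0.21 to 0.34, and in the interaction Ccn2 from -1.31 to 0.18.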
